A study of Rattus norvegicus with 20 samples.

Results

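Complement is a cascade of plasma proteins and cell surface receptors, and 4 of its transcripts are described here in injured rat brain: C4b, C3, Masp1 and C3ar1. They were taken by name from the 750 endogenous genes of an nCounter probe panel, an assay that counts barcoded probes on RNA one by one, with no amplification step. The RNA was from the brains of 10 female rats given a controlled cortical impact, in which a piston bruises the bared cortex to model brain trauma. Every animal provided 1 ipsilateral sample from the injured side and 1 contralateral sample from the opposite side, so the 20 libraries form 10 pairs. The study gave injured animals intranasal human neural stem cells immortalized with L-myc, or vehicle. Which of these each of the 10 animals received is not in the labels, so neither hemisphere group could be divided by treatment. No uninjured or sham brain was among the samples. Strain, age and time after injury are not given in the sources used here.

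In the complement system, MASP-1 is a serine protease that travels with mannose-binding lectin and ficolins and starts the lectin pathway when these bind sugar patterns on a surface. The classical and lectin pathways then cleave C4, whose fragment C4b attaches covalently to nearby surfaces and helps form the enzyme that cleaves C3. Cleaved C3 coats targets for uptake and releases the small fragment C3a, which signals through the receptor C3aR1 on microglia, macrophages and other myeloid cells. In the brain, astrocytes, microglia and neurons make complement components locally, and the system is known for marking debris and synapses for removal by phagocytes.

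The probes bear on how the counts can be read. Of the 770 gene probes, 0 carry a transcript accession found among rat RefSeq transcripts, although 705 of the 770 symbols are rat gene symbols. The probes may thus have been designed on transcripts of another species, which the labels do not state. For a probe that gives few counts, little RNA and a poor match to the rat sequence cannot be told apart. The symbol C4b carries a further limit. In RefSeq's rat assembly GRCr8 both C4a (chr20:4010306-4024707) and C4b (chr20:4201979-4216292) lie on chromosome 20, and C4b is also listed as a synonym of C4a. These genes are closely related copies, and a probe count cannot be divided between them. The other members lie on chromosome 4 (C3ar1, chr4:157747419-157756609), chromosome 9 (C3, chr9:2174412-2201339) and chromosome 11 (Masp1, chr11:90839081-90909922).

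Promoters of C4b and C3ar1 are shown because these are the members that differed between hemispheres. Each runs from 250 bases before to 50 after the start site of the RefSeq promoter table (GRCr8), 5′ to 3′ on the gene's own strand (C4b, chr20:4201729-4202028, plus strand, and C3ar1, chr4:157756481-157756780, minus strand). Capitals mark a match to one of 6 motifs.
C4b: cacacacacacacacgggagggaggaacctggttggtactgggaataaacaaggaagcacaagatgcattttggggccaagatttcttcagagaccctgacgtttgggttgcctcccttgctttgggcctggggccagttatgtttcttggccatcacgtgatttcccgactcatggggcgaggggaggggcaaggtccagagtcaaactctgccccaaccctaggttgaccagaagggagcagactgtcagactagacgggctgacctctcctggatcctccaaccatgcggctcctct
C3ar1: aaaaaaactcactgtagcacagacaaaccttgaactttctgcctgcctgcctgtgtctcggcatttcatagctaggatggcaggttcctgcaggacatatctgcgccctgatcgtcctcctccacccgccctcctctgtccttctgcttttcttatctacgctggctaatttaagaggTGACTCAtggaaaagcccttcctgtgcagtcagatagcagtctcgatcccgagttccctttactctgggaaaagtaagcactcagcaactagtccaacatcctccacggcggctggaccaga
The motifs, read on both strands, were TGANTCA (AP-1), TTCNNNGAA (STAT), the core of the interferon-stimulated response element, GGAANTCC (core of palindromic NF-kB sites), TTGCGCAA (C/EBP) and TATAAA. In all 4 members' promoters together the search found 1 match, TGACTCA in C3ar1, whose first base lies at -72 from the start. Of 33469 rat promoters of this length, 7.33% hold TGANTCA, 8.87% TTCNNNGAA, 3.92% the interferon-stimulated core, 4.59% GGAANTCC, 0.17% TTGCGCAA and 14.22% TATAAA. A match is a stretch of letters and not a measured site, and a missing match says only that these letters are not in this window.

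Totals over the 770 gene probes ranged from 34454 to 319964 counts per library. To compare libraries, each count was divided by the library's factor, the geometric mean of 17 housekeeping genes set to average 1, and the result is called a scaled count. Factors ran from 0.289 in the ipsilateral library of animal 8 to 4.27 in the deepest contralateral one, of animal 7. The 8 negative control probes are designed without a target and averaged 5.28 raw counts over the 20 libraries, with a highest single count of 18. The 2 neuronal markers on the panel, Nefl and Mpped1, were lower on the injured side. Log2 fold changes were -0.31 for Nefl and -0.63 for Mpped1 (edgeR adjusted p = 0.0397 and 0.0115). Of all genes with a mean of at least 20 raw counts, 10.4% were called lower. In the fit over all endogenous genes Mpped1 was still called lower (edgeR adjusted p = 0.0104), but Nefl was not (0.082). The summed level of the 2 markers was 483 to 1116 ipsilateral and 727 to 1128 contralateral scaled counts. The astrocyte marker S100b averaged 2.40 raw counts, under the controls, and no oligodendrocyte marker from the list was on the panel.

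Of the members, C4b and Masp1 stood clear of the negative controls, C3ar1 stood a little above them, and C3 lay among them. C4b averaged 346 raw counts and Masp1 119, and each exceeded the highest negative control of its own library in 20 of 20 libraries. C3ar1 averaged 24.7 raw counts and did so in 19 of 20, the exception being the ipsilateral library of animal 5 with 11 counts against a highest control of 11. C3 averaged 11.6 raw counts, 2.20 times the mean of the controls, and exceeded the highest control in 8 of 20 libraries. In 3 libraries C3 was below the mean of that library's controls, namely both libraries of animal 10 and the ipsilateral library of animal 5. The highest raw count of C3, 31, came from the contralateral library of animal 7, which had the largest factor.

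**Figure D1:**
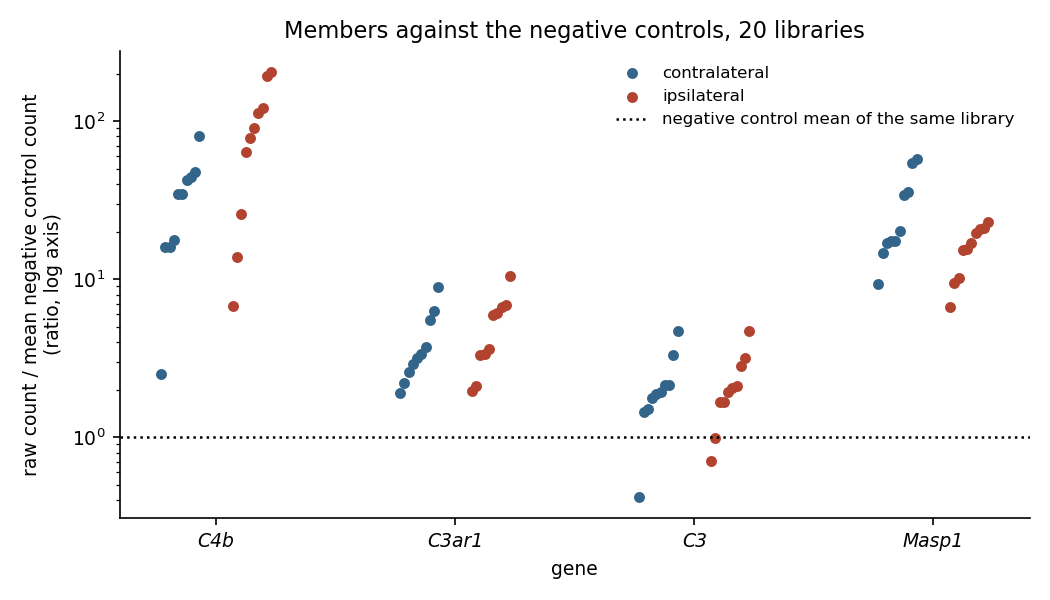
Raw count of each member divided by the mean negative control count of the same library (log axis), with 10 contralateral and 10 ipsilateral libraries per gene as points in order of value. C4b reaches a ratio of 205 and Masp1 57.8, whereas C3 lies between 0.421 and 4.68.

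C4b, the surface-binding component shared by the classical and lectin pathways, was higher on the injured side. Contralateral scaled counts ran from 27.0 in animal 10 over a median of 117 to 204 in animal 6. Ipsilateral scaled counts ran from 61.6 in animal 5 over a median of 619 to 1202 in animal 6. Of the 10 ipsilateral libraries, 7 lay above every contralateral library, at 572 or more, while those of animals 5, 10 and 3 (61.6, 72.3 and 109) fell within the contralateral range. Means were 568 ± 384 ipsilateral and 116 ± 54.9 contralateral scaled counts (SD, n = 10 each). The log2 fold change was 2.00 ± 0.30 (SE), a 4.0-fold difference, with an adjusted p of 0.000786 in edgeR's quasi-likelihood test with the animal as a block. Within animals the ipsilateral count was higher in 9 of 10, against 30.1% of tested genes that were higher in at least 9. The ratio of the 2 hemispheres ran from 0.892 in animal 5 to 7.38 in animal 7. Before scaling, the ipsilateral count of C4b was the higher one in 8 of 10 animals.

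Animal 10 had a low C4b count on both sides, with raw counts of 99 ipsilateral and 12 contralateral. Its ratio was 2.68, although both of its libraries were at the low end of their groups. Animal 6 had the highest C4b count in both hemispheres.

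**Figure D2:**
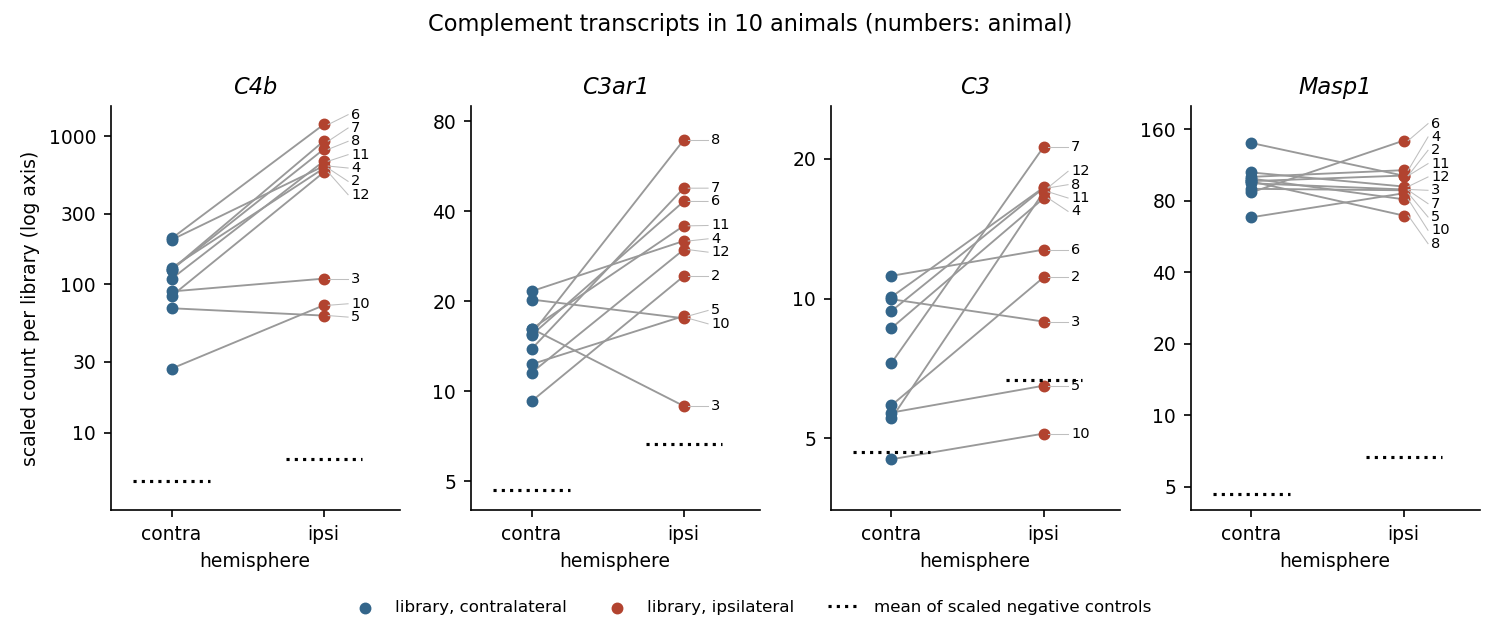
Scaled count of each member (log axes, each panel with its own range) in the contralateral and ipsilateral library of each animal, joined by a line and numbered by animal. Dotted lines are the mean of the scaled negative controls, at 4.68 contralaterally and 6.67 ipsilaterally. C4b rises steeply in most animals and Masp1 lies on one level, whereas C3 reaches down to the dotted lines.

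C3ar1, the receptor of the fragment C3a, was also higher on the injured side, from a low level. Contralateral scaled counts ran from 9.25 in animal 2 over a median of 15.5 to 21.6 in animal 4. Ipsilateral scaled counts ran from 8.92 in animal 3 over a median of 30.8 to 69.3 in animal 8. In 7 of 10 animals the ipsilateral library lay above every contralateral library, and in animal 3 it lay below all of them. Means were 32.6 ± 17.6 ipsilateral and 15.2 ± 3.77 contralateral scaled counts (SD, n = 10 each). The log2 fold change was 1.04 ± 0.26 (SE), or 2.06-fold (edgeR adjusted p = 0.00597), and the count was higher in 8 of 10 animals. It was lower in animal 3, with 8.92 against 16.2 scaled counts, and in animal 10, with 17.5 against 20.3. Raw counts of C3ar1 were higher ipsilaterally in 5 of 10 animals, animal 10 among them. In animals 5, 7, 8 and 11 the raw count was lower ipsilaterally, so the direction in these animals rests on the scaling. After subtraction of each library's mean negative control the log2 fold change was 1.23 (edgeR adjusted p = 0.00442).

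Together, 2 of the 3 members that could be tested rose, where 47.2% of all 193 tested genes rose, 10.4% fell and 57.5% thus differed in either direction. Tested genes are those with a mean of at least 20 raw counts over all 20 libraries. C3ar1 passed it in both hemispheres, with raw means of 28.1 ipsilateral and 21.3 contralateral counts. A tissue with more cells of a type and a tissue with more RNA per cell cannot be told apart in these bulk samples.

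C3, the protein on which all complement pathways converge, did not pass the test. Contralateral scaled counts ran from 4.50 over a median of 7.95 to 11.2, and ipsilateral scaled counts from 5.12 over a median of 14.6 to 21.2. Of the 10 ipsilateral libraries, 6 lay above every contralateral library, and the other 4 overlapped with them. Among those 6, the libraries of animals 6, 8 and 12 did not exceed their own highest negative control. Their raw counts of 13, 5 and 14 were equal to it. Means were 13.4 ± 5.34 ipsilateral and 7.81 ± 2.34 contralateral scaled counts (SD, n = 10 each). Because C3 lay under the minimum of 20, its value comes from the fit over all 750 endogenous genes, which called 13.7% of them higher, 1.2% lower and 14.9% in either direction. There its log2 fold change was 0.78 ± 0.28 (SE, edgeR adjusted p = 0.0646), beside a median of 0.56 over all 750 genes. An exact sign-flip permutation test of the 10 paired differences, two-sided, gave p = 0.00391 for C3. After Benjamini-Hochberg adjustment over the 750 genes this was 0.0651. The same sign-flip test gave 0.00391 for C4b and 0.0156 for C3ar1, or 0.0651 and 0.094 after adjustment over the 750 genes. Over the 193 tested genes the adjusted values were 0.0204 for C4b and 0.0355 for C3ar1. That test thus did not separate C3 from C4b when adjusted over the same genes. The smallest p that test can give is 0.00195.

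The count of C3 was higher in 9 of 10 animals, the exception being animal 3 with 8.92 against 9.97 scaled counts. Of the 557 genes under the minimum, 45 were higher in at least 9 animals, or 8.08%. The scaled negative controls moved the same way. Their mean was 6.67 ± 2.12 ipsilateral and 4.68 ± 2.63 contralateral (SD, n = 10 each), higher in 7 of 10 animals, with a median paired difference of 1.0 on the log2 scale. With each library's mean control subtracted, C3 had a log2 fold change of 0.79 with a wider SE of 0.45 (edgeR adjusted p = 0.354).

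Masp1, the lectin pathway protease, had nearly the same level on both sides. Contralateral scaled counts ran from 68.1 in animal 5 over a median of 96.5 to 139.9 in animal 11. Ipsilateral scaled counts ran from 69.3 in animal 8 over a median of 90.5 to 143 in animal 6. The groups overlapped almost wholly, with 1 ipsilateral library above the highest contralateral one. Means were 96.1 ± 19.97 and 97.7 ± 17.99 scaled counts (SD, n = 10 each, ipsilateral first). The log2 fold change was -0.03 ± 0.12 (SE, edgeR adjusted p = 0.863), and the paired differences ran from -0.47 in animal 8 to 0.72 in animal 6. Masp1 was higher in 4 and lower in 6 of 10 animals. The call depends on the scaling, since the log2 fold change was -0.48 (edgeR adjusted p = 0.00979) after median centring of the libraries.

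The coefficient of variation over animals of Masp1 was 20.8% ipsilaterally and 18.4% contralaterally. Those of C4b were 67.5% and 47.2%, and those of C3ar1 53.9% and 24.8%. For C3 they were 39.9% and 29.9%, at counts where counting error alone is large.

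The animals with low ipsilateral levels were the same for 3 of the members. For C4b, C3ar1 and C3 the 3 lowest ipsilateral libraries came from animals 3, 5 and 10, and the next lowest stood at 572, 24.3 and 11.1 scaled counts in that order. For Masp1 the lowest ipsilateral library was that of animal 8, and animals 10 and 5 followed at 81.1 and 86.0 scaled counts. The highest ipsilateral library differed between members, with animal 6 for C4b and Masp1, animal 8 for C3ar1 and animal 7 for C3. The members share each library's factor, so their scaled counts are not independent of each other.

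**Figure D3:**
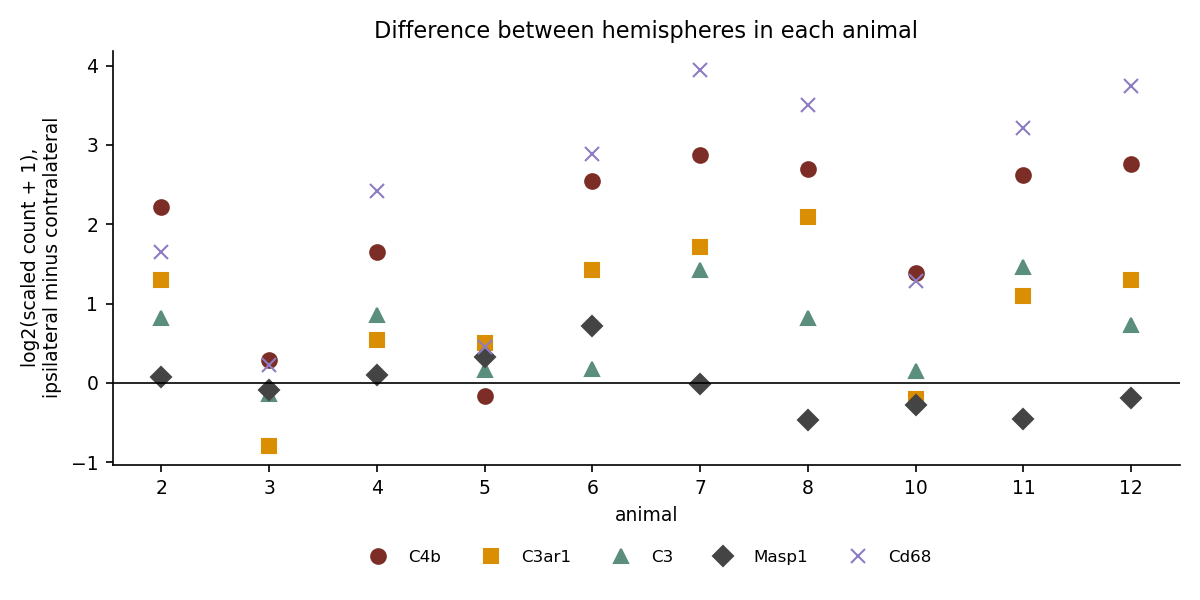
Difference between hemispheres of log2(scaled count + 1) in each of 10 animals for the 4 members and for Cd68, a lysosomal protein of phagocytes. C4b lies between 2.22 and 2.87 in animals 2, 6, 7, 8, 11 and 12, and at 0.28 and -0.16 in animals 3 and 5.

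Markers of several cell types differed between hemispheres along with C4b and C3ar1. Of 10 microglia and macrophage markers on the panel, 4 were tested (Cd68, Ptprc, Fcer1g and Mrc1) and all 4 rose, where 47.2% of all tested genes rose. The summed level of the 10 was 135 to 913 ipsilateral and 130 to 177 contralateral scaled counts. The other 6 were not called in the fit over all 750 genes. Among them Trem2, a receptor of microglia with a mean of 13.5 raw counts, stood at 0.16 ± 0.28 on the log2 scale (SE, edgeR adjusted p = 0.643), the ipsilateral count being the greater one in 5 of 10 animals. Itgam averaged 2.10 raw counts, below the negative controls, and stood at -0.15 ± 0.40 (SE, edgeR adjusted p = 0.767). Csf1r stood at 1.21, Cd14 at 0.998, Cd163 at 0.78 and Cx3cr1 at 0.53 (edgeR adjusted p = 0.0591, 0.0904, 0.171 and 0.342). The median of all 750 genes in that fit was 0.56. These markers averaged 3.45 (Cx3cr1) to 6.55 (Cd14) raw counts, around the level of the negative controls. Cd68 in animals 3, 5 and 10 had 16.2, 21.1 and 23.4 ipsilateral scaled counts, against 86.9 to 301 in the other animals. Ptprc, the leukocyte antigen CD45, had 7.30, 8.11 and 13.2 in these 3 animals. Of the 7 endothelial markers on the panel, the 4 tested also rose, beside the 47.2% of all tested genes that rose. Log2 fold changes were 0.98 for Cdh5, 0.65 for Tie1, 0.59 for Abcb1a and 0.37 for Tek (edgeR adjusted p from 0.00208 to 0.0133). The median of all 193 tested genes was 0.30 in the same fit, 0.02 with TMM scaling and -0.15 after median centring. Cell type markers are given for the housekeeping scaling only, and their calls may depend on it. The other 3 endothelial markers were not called in the fit over all 750 genes. Pecam1 stood at 0.26, Kdr at 0.35 and Vwf at 0.66 (edgeR adjusted p = 0.513, 0.526 and 0.3). All 7 endothelial markers summed to 178 to 471 ipsilateral and 183 to 326 contralateral scaled counts. Both neuronal markers went the opposite way, but in the fit over all 750 genes only Mpped1 was called lower. Of the 9 T and NK cell markers and the 6 B and plasma cell markers on the panel, 0 were called in that fit. Cd3e, the only 1 of these tested, stood at -0.38 ± 0.39 (SE, edgeR adjusted p = 0.409). The part of any of these cell types in the differences of C4b and C3ar1 was not tested. Of the 5 neutrophil markers on the panel 0 reached the minimum count, with summed levels of 17.2 to 79.7 ipsilateral and 6.09 to 38.3 contralateral scaled counts. Medians of that sum were 26.2 ipsilateral and 22.8 contralateral. The 5 markers averaged 2.90 to 6.80 raw counts, around the level of the negative controls.

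Genes whose paired differences over the 10 animals were most like those of a member were ranked by Pearson's r among the other tested genes. For C4b these were Tgfb1 (transforming growth factor beta 1, r = 0.94), Cd68 (0.93), Vim (vimentin, 0.91), A2m (alpha-2-macroglobulin, 0.898) and Abca1 (the cholesterol exporter, 0.898). Without the 2 animals farthest from the median of C4b the r of these genes lay between 0.73 for Vim and 0.88 for A2m. Within the contralateral libraries alone r was 0.88 for Cd68 and 0.87 for Vim with C4b, and 0.52 to 0.60 for A2m, Tgfb1 and Abca1.

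Among the genes most like C3ar1 were the interferon-induced helicase Ddx60 (r = 0.94), the lipid carrier Apoe (0.94), the galectin Lgals3 (0.92) and Abca1 (0.92). Within the contralateral libraries alone r of these 4 genes with C3ar1 was between 0.19 for Apoe and 0.24 for Ddx60. C3 was most like Lrp1, a receptor for lipoproteins and proteases (r = 0.92), whose own log2 fold change was 0.21. For Masp1 the highest r was lower, 0.75 for the adhesion molecule Alcam, and 0.44 without the 2 animals farthest from the median. These r values are the highest of 192 or 193 and are a description of 10 animals that share scaling factors, with no test.

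The wider complement system was mostly near background on this panel. Of 55 complement genes listed, 35 were on the panel and 6 were tested: C4b, C3ar1, Masp1, Clu, C1qbp and Colec12. Of these 6, 4 rose, 0 fell and 2 did not pass (edgeR, adjusted p under 0.05), where 47.2% of all 193 tested genes rose and 10.4% fell. The median log2 fold change of the 6 was 0.93, against 0.30 for all 193 tested genes. The remaining 29 averaged 1.45 to 15.2 raw counts, and 16 of them lay at or below the mean of the negative controls.

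Among the tested regulators and recognition proteins, Clu (clusterin, an inhibitor of the membrane attack complex and a lipid carrier) rose, with a log2 fold change of 0.83 ± 0.18 (SE, edgeR adjusted p = 0.0033). Its means were 17889 ± 7909 ipsilateral and 9171 ± 1007 contralateral scaled counts (SD, n = 10 each). Colec12, a scavenger receptor of the collectin family, rose by 1.14 ± 0.34 (SE, edgeR adjusted p = 0.0126), with 81.8 ± 54.5 scaled counts on the injured and 32.9 ± 12.1 on the opposite side (SD, n = 10 each). After median centring of the libraries the call of Colec12 was lost, leaving 3 complement genes called higher and 2, C1qbp and Masp1, called lower, and with the positive controls alone 0 were called. C1qbp, a mainly mitochondrial protein that binds C1q, stood at -0.08 ± 0.07 (SE, edgeR adjusted p = 0.302), and it was also called lower with TMM scaling.

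The fit over all 750 genes called 6 of the 35 complement genes higher and 0 lower, where 13.7% of all genes were called higher. Their median log2 fold change was 0.59, beside 0.56 for all 750. The calls beyond the 4 above were Cfd and Cfb, the protease and the catalytic subunit of the alternative pathway. Cfd (adipsin, or factor D) had a log2 fold change of 1.63 ± 0.34 (SE, edgeR adjusted p = 0.00169), with 23.3 ± 12.4 ipsilateral and 8.06 ± 5.42 contralateral scaled counts (SD, n = 10 each). Cfd averaged 15.2 raw counts, and it exceeded the highest negative control in 9 of 20 libraries. With the negative controls subtracted it stood at 2.21 (edgeR adjusted p = 0.000498), and after median centring at 1.17 (edgeR adjusted p = 0.00806). With the positive controls alone the call of Cfd was lost, at 0.69 (edgeR adjusted p = 0.259).

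Cfb (factor B) had 1.43 ± 0.47 (SE, edgeR adjusted p = 0.0421) but averaged 5.45 raw counts, at the level of the controls, and exceeded the highest control in 1 of 20 libraries. Its call was lost with the controls subtracted (edgeR adjusted p = 0.171), with TMM scaling (0.075), with the size factors of DESeq2 (0.0734), after median centring (0.162) and with the positive controls alone (0.397). It was also lost when any one of 7 animals was left out, with the highest adjusted p, 0.15, without animal 7. The starter of the classical pathway could not be followed: C1qa averaged 5.50, C1qb 2.90, C1ra 2.70 and C1s1 3.65 raw counts. The lectin pathway genes Masp2 (3.60) and Mbl2 (2.55) and the C5a receptor C5ar1 (5.85) lay at the same level.

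**Figure D4:**
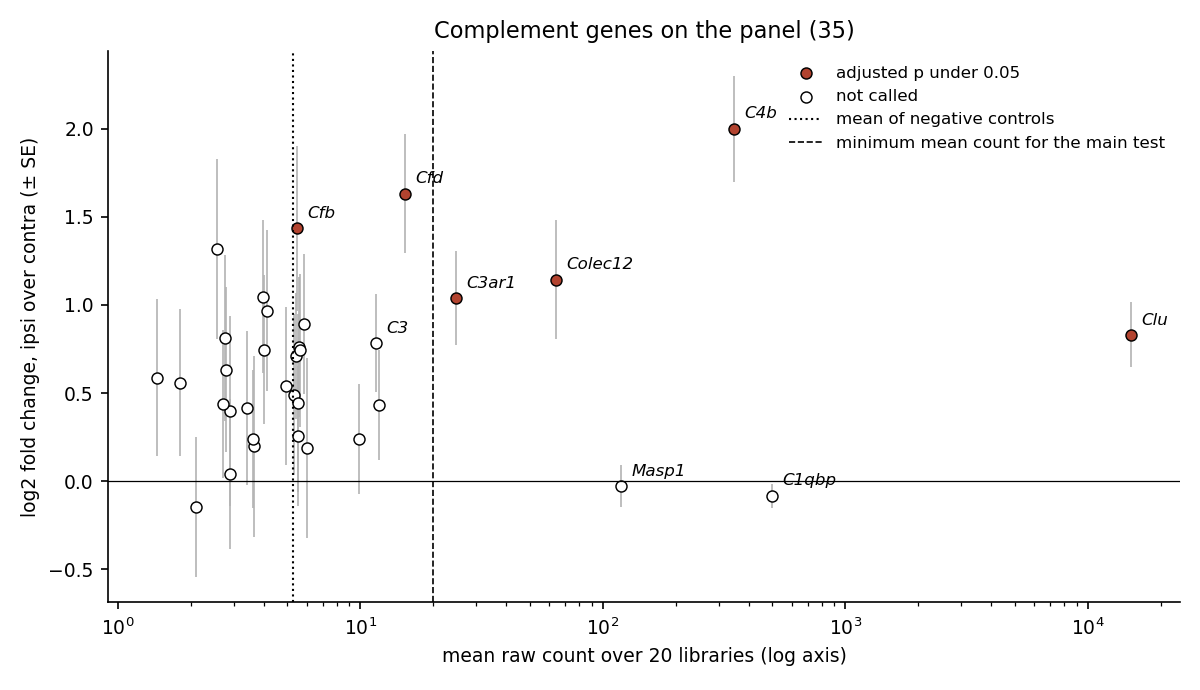
Log2 fold change (ipsilateral over contralateral, ± SE) of the 35 complement genes on the panel against their mean raw count over 20 libraries (log axis). Filled points passed an adjusted p under 0.05, in the fit of 193 genes right of the dashed line and of 750 genes left of it. Most genes crowd around the mean of the negative controls at 5.28 counts.

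The size of the C4b and C3ar1 differences depended on the scaling. With TMM scaling, which moved the median of all tested genes from 0.30 to 0.02, the log2 fold change was 1.71 for C4b and 0.76 for C3ar1 (edgeR adjusted p = 0.00122 and 0.0108). After median centring of the libraries, at a gene median of -0.15, it was 1.53 and 0.58 (edgeR adjusted p = 0.000944 and 0.0366). With the positive controls alone, which do not correct for the amount of RNA, the calls of both were lost, at 1.01 for C4b (edgeR adjusted p = 0.143) and 0.0039 ± 0.33 for C3ar1 (SE, edgeR adjusted p = 0.994), a value near 0 that gives no direction. Per the column headers, the libraries of each hemisphere formed a counting set of their own. Positive controls were 1.46-fold higher in the ipsilateral one, so set and hemisphere cannot be told apart.

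**Figure D5:**
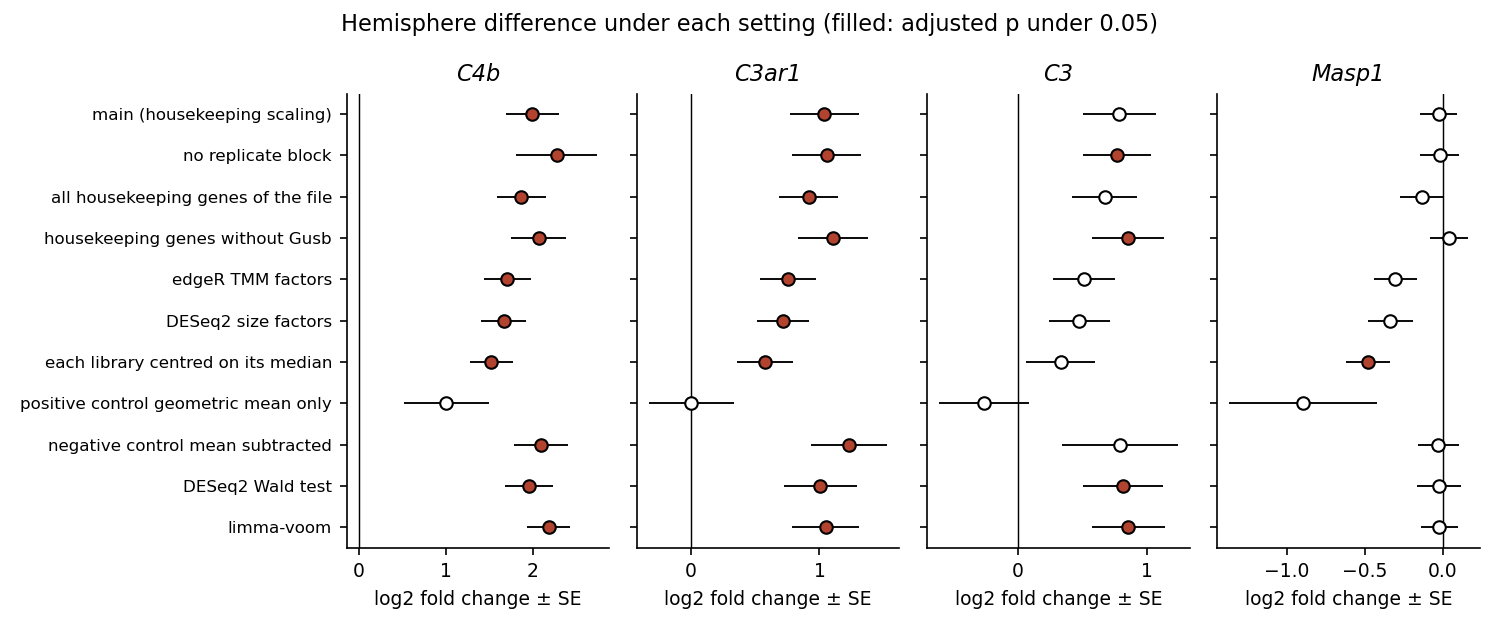
Log2 fold change (ipsilateral over contralateral, ± SE) of the 4 members under the main fit and 10 alternatives, filled where the adjusted p is under 0.05. C4b stays between 1.01 and 2.28, and Masp1 moves from 0.039 to -0.90.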

How the data were processed

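RNA counts of 784 probes were deposited for 20 libraries. Per the labels' protocols they were read on an nCounter Digital Analyzer and handled in nSolver, of no stated version. The series design text describes normalization to controls and housekeeping genes, but the deposited counts are whole numbers with unsubtracted controls and uneven totals, and were treated as raw. Columns were mapped to samples by their headers. A second table holds the same counts under another animal number in 20 of 20 columns, with all 10 pairs kept. Animal numbers here follow the headers.

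The 20 housekeeping genes are not marked, and were taken as the separate alphabetical block before the controls. Counts were scaled by 17 of them with a mean of at least 20 counts. Endogenous genes with a mean of at least 20 counts (193 of 750, 25.7%) were tested with edgeR 4.0.16 in R 4.3.3 (glmQLFit, glmQLFTest, two-sided, animal as block, Benjamini-Hochberg over the 193 genes, called at adjusted p under 0.05). C3 was tested in the same fit without a minimum. The SE is the log2 fold change divided by the square root of F. Paired differences used log2(scaled count + 1). Alternatives included DESeq2 1.42.0 and limma 3.58.1. On simulated counts (203 genes tested) edgeR recovered 100% of 2-fold changes (16 genes, a log2 change of 1), and 5.88% of its calls fell on unchanged genes. The simulation gave all genes the same dispersion and each changed gene the same change in every animal. It was fitted with the factors it was drawn with. These shares therefore do not cover differences that vary between animals or depend on the scaling.

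The pairing comes from the titles, which give 1 sample of each hemisphere the same animal number. Between the hemispheres of 1 animal, deviations from the group means correlated from -0.21 to 0.50, above 0.1 in 5 of 10 animals. Nothing marks the samples as repeats, and libraries of a group differed by more than sampling noise (chi-square per degree of freedom at least 2.22). Members, gene lists and tests were chosen with earlier results of these data known. Named genes are the 4 members, the tested genes of the complement list with up to 8 others by role, the 5 genes most like each member, and cell type markers. Not every gene the rule allows is reported here.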

Additional observations from a re-analysis of the deposited data

Results flagged for a closer look

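In groups of 10 libraries, the gap of the most extreme library to its nearest neighbour was set against the group's whole log2 range, for the 4 members in each hemisphere, their paired differences, and 3 library measures (18 groups in all). About 1 in 20 groups is picked out by chance, 0.9 of 18, and 2 were. No group of values of C4b, C3ar1, C3 or Masp1 was among them (0 of the 12 such groups). Both were of the ipsilateral library of animal 8. Its negative control mean was 3 counts (gap 0.521), and its housekeeping factor was 0.289 (gap 0.488). This library holds the highest C3ar1 level, 69.3 scaled counts from 20 raw counts. Without animal 8 the log2 fold change of C3ar1 was 0.90 (edgeR adjusted p = 0.0172) and that of C4b 1.91 (edgeR adjusted p = 0.00264).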

How the results depend on the processing

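C4b and C3ar1 kept their direction and call without the replicate block (2.28 and 1.06 on the log2 scale, edgeR adjusted p = 0.000688 and 0.0025), and with 1 animal left out at a time (1.89 to 2.20 and 0.90 to 1.22). With the positive controls alone their calls were lost (1.01 and 0.0039), 9 genes of the 193 were called in place of 111, and 0 complement genes in place of 4. The call of C3 was gained without the replicate block (0.77, edgeR adjusted p = 0.0381), without Gusb (0.85, 0.0406), at a minimum of 10 counts (0.81, 0.011), with DESeq2 (0.81, 0.0428) and with limma-voom (0.85, 0.0437). With the positive controls alone C3 was not called, at -0.26 ± 0.35 (SE, edgeR adjusted p = 0.692), a value that gives no direction. With 1 animal left out C3 ran from 0.66 to 0.90, called without animal 3 or animal 10. Masp1 changed sign without Gusb (0.039), was called lower with median centring (-0.48), and ran from -0.11 to 0.026 with 1 animal left out. Its sign turned without animal 8, 10 or 11. In the 193 genes, 84 to 125 were called with 1 animal left out. The count over the complement list was an alternative added after the data were seen, and it stayed at 4 with any animal left out but was 3 after median centring, with 2 genes lower. The share of called genes that were higher was 82.0%, against 55.2% with TMM, 35.5% after median centring and 52.8% by the size factors of DESeq2. At a minimum of 50 counts C3ar1 and C3 were not tested. The causes of these changes were not tested. Low counts limit C3 and Cfb, which averaged 11.6 and 5.45 raw counts, as they do the other complement genes near the controls.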
